A study of Mus musculus with 12 samples.

Results

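The 34 genes described here encode the chaperones and folding enzymes of the endoplasmic reticulum (ER), the machinery that moves proteins into it and clears misfolded ones from it, and the regulators of the unfolded protein response. They were taken from a list of symbols, and no value of this table enters the rule, although the list was drawn up with earlier results of these data known. All 34 symbols were found in a table of 37991 genes from plated mouse hepatocytes, and all 34 were among the 11213 genes that reached 1 FPKM (a count of fragments scaled by transcript length and library depth) in at least 3 libraries and were tested. The hepatocytes came from 10-week-old male mice whose REV-ERBα and REV-ERBβ genes, Nr1d1 and Nr1d2, were both flanked by loxP sites. These receptors act as repressors in the circadian clock. All mice, controls included, carried the floxed alleles and had received an AAV8 virus 2 weeks earlier. In it the TBG promoter, which is active in hepatocytes, drove Cre with GFP (KO-labelled cells) or GFP alone (control cells). After collagenase digestion and plating on collagen, cells were kept for 8 h with 10 µM SR9009, a small molecule marketed as an agonist of REV-ERB, or with its solvent DMSO. This gave 4 groups of 3 libraries, KO-labelled SR9009, KO-labelled DMSO, control SR9009 and control DMSO. No group had Cre in the absence of loxP sites, so the deletion and Cre itself cannot be told apart. Whether replicates are separate mice or plates of 1 preparation is not stated, so the p-values cover only the spread among these libraries, and that spread may be technical.

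Secreted and membrane proteins fold in the ER with the help of chaperones that bind unfolded chains, lectins that hold glycosylated chains and enzymes that form and shuffle disulfide bonds. When unfolded proteins build up, the sensors IRE1α, PERK and ATF6 start the unfolded protein response: IRE1α splices the messenger RNA of the transcription factor XBP1, PERK slows translation, and ATF6 is cut to release a transcription factor. Spliced XBP1 and cut ATF6 turn on genes of chaperones, oxidoreductases and ER-associated degradation, the pathway that returns misfolded proteins to the cytosol for destruction. Hepatocytes secrete most plasma proteins and are rich in this machinery.

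The libraries were alike in most overall measures. Each held between 10611 and 10932 genes at 1 FPKM or more, and replicate libraries correlated with r of 0.982 to 0.992 over genes, on the log2 scale. Total reads are not given in the table, but the steps between its low values give relative depth. Against control DMSO library 1, control SR9009 library 1 had 55.5% and KO-labelled DMSO library 1 63.4% of the depth, and the others 77.0% to 92.3%. Nr1d1 stood at 21.5 to 22.5 FPKM in KO-labelled SR9009 and 17.4 to 18.3 FPKM in KO-labelled DMSO libraries, against 19.0 to 20.1 FPKM in control SR9009 and 18.3 to 19.0 FPKM in control DMSO libraries. It was thus higher, not lower, in KO-labelled cells under SR9009 (adjusted p = 0.0429), and its genotype change in DMSO did not pass (adjusted p = 0.492). Nr1d2 lay between 13.5 and 18.9 FPKM over the 4 groups and passed in neither genotype comparison. The deposited values cover whole gene models and the deleted part is not given, so these levels do not check the deletion. Arntl (BMAL1), which REV-ERB represses, stood at 4.99 to 5.86 FPKM in KO-labelled SR9009 and 6.30 to 6.85 FPKM in KO-labelled DMSO libraries, against 0.117 to 0.391 FPKM in control SR9009 and 0.159 to 0.306 FPKM in control DMSO libraries. Summed markers of hepatocytes came to 27999 to 34820 FPKM, against 29.1 to 61.7 FPKM for cholangiocytes and at most 42.7 FPKM for Kupffer cells, so the labelled cell type fits its markers.

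Of the 34 genes, 16 rose in KO-labelled against control cells both under SR9009 and in DMSO, where 891 of 11213 tested genes did. With SR9009 against DMSO, 13 of the 34 fell in both genotypes, where 285 of 11213 tested genes did. Ero1l alone fell between genotypes, and 7 of the 34 passed in no genotype or SR9009 comparison. Together the 34 genes made up 0.579% to 0.625% of the summed FPKM in KO-labelled SR9009 libraries and 0.696% to 0.757% in KO-labelled DMSO. In control libraries the share was 0.427% to 0.456% with SR9009 and 0.531% to 0.563% with DMSO. The 4 groups did not overlap in this share. KO-labelled DMSO had the highest group mean for 27 of the 34 genes, against 32.1% of all tested genes. Control SR9009 had the lowest mean for 29 of the 34, against 34.7% of all tested genes. In bulk RNA, fewer cells of a type and less RNA per cell cannot be told apart.

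**Figure D1:**
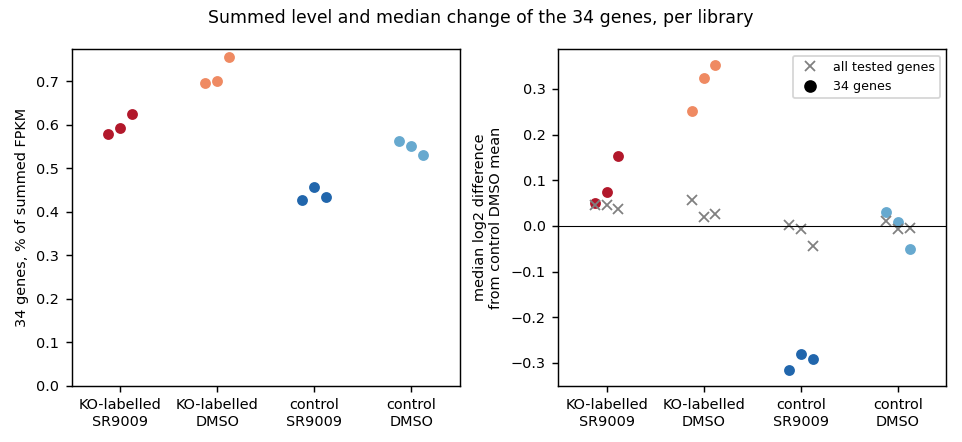
Left, share of summed FPKM (%) that came from the 34 genes in each of the 12 libraries, by group. Right, median over the 34 genes and over all 11213 tested genes of the log2 level relative to the mean of the control DMSO libraries. KO-labelled DMSO libraries lie between 0.696% and 0.757% and control SR9009 libraries between 0.427% and 0.456%.

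In DMSO, 19 of the 34 genes rose in KO-labelled against control cells and 1 fell, where 11.7% of all tested genes rose and 8.32% fell (limma, Benjamini-Hochberg adjustment over all tested genes, threshold 0.05). The median log2 change, on the log2(FPKM + 1) scale used for every change here, which understates changes of low genes, was 0.34 over the 34 genes and 0.04 over all tested genes. Under SR9009, 20 rose and 1 fell between the same genotypes, against 12.9% and 7.43% of all tested genes, with medians of 0.34 and 0.06. These comparisons share no library, but the fit gave both the same estimate of spread for a gene. Whether the DMSO and SR9009 plates of a genotype came from the same mice is not stated, so the comparisons may not be independent. The genes that rose in both comparisons numbered 16, which is 84.2% of the 19 and 80% of the 20. Over all tested genes the same figures were 68.2% and 61.4%.

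SR9009 lowered 16 of the 34 genes in control cells and raised none, where 4.55% of all tested genes fell and 3.69% rose. In KO-labelled cells it lowered 15 and raised none, against 4.56% and 5.32% of all tested genes. The median log2 change in KO-labelled cells was -0.21 over the 34 genes and 0.00 over all tested genes, and in control cells it was -0.27 and -0.02. In fits to only the groups compared, 10 of the 34 fell in control cells, where 194 of 11213 tested genes fell, against 510 in the fit to all groups. The calls of Pdia3, P4hb, Calr, Creld2, Manf and Sec61a1 ended there (adjusted p = 0.0586 to 0.171). So did those of Hspa5, Ern1 and Ssr1 between genotypes under SR9009 (0.0792 to 0.101), Syvn1 between genotypes in DMSO (0.0868) and P4hb in KO-labelled cells (0.0588). Other calls were gained. In these fits 20 members rose between genotypes in DMSO and 17 under SR9009, where 1482 and 905 of all tested genes rose. With SR9009 in KO-labelled cells 16 fell, where 550 of all tested genes did. The 13 genes that fell in both genotypes were Hsp90b1, Hyou1, Pdia4, Pdia6, P4hb, Creld2, Calr, Dnajb11, Sdf2l1, Herpud1, Edem1, Derl1 and Derl3. They are 86.7% of the 15 in KO-labelled cells and 81.2% of the 16 in control cells, where the same figures over all tested genes were 55.8% and 55.9%. The SR9009 and genotype comparisons share libraries, so no agreement between them is given, only the values of each. For no member did the SR9009 effect differ between genotypes past the threshold, which 0.0268% of all tested genes passed. Unadjusted p for this difference was under 0.05 for 2 of the 34, Canx and Derl2. With no difference at all, 5% of genes would pass that unadjusted threshold, so these 2 are not read as a result.

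**Figure D2:**
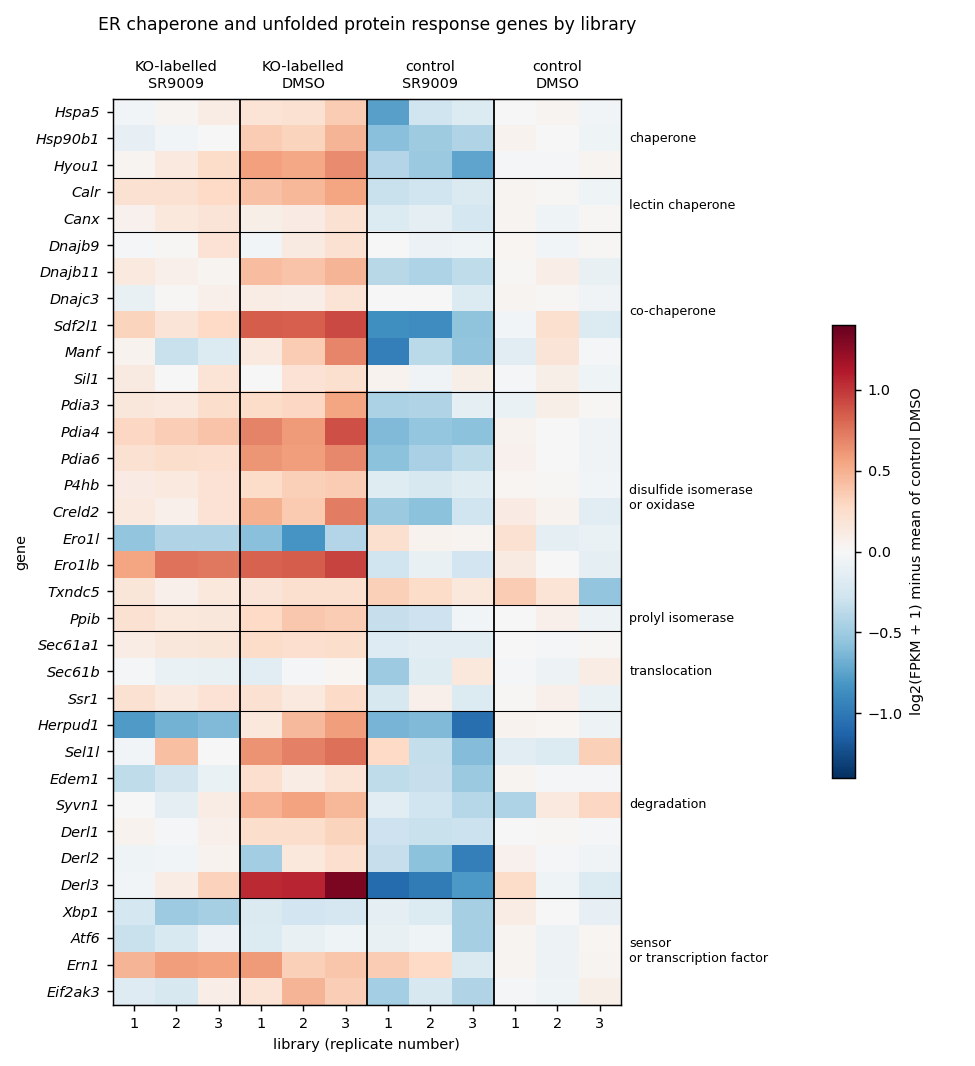
Level on the log2(FPKM + 1) scale of each of the 34 genes (rows, by role) in each of the 12 libraries (columns, by group), relative to that gene's mean in control DMSO libraries. Most rows are highest in the KO-labelled DMSO columns and lowest in the control SR9009 columns, and Ero1l runs the other way between genotypes.

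The promoters of these genes are known for a shared element, the ER stress response element (ERSE), a CCAAT box and a CCACG box held 9 bases apart and bound by NF-Y together with ATF6 or XBP1. RefSeq promoters (build GRCm38.p6, 250 bases before to 50 bases after the annotated start; the files use mm9 and their coordinates are not mixed with these) were matched for 28 of the 34 genes, 2 of them through newer symbols. Hyou1, Manf, Atf6, Derl1, Sec61a1 and Sil1 had no entry. The letters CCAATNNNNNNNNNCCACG, searched on both strands, were in 10 of the 28 promoters (35.7%), in 15 of 8314 promoters of tested genes (0.18%) and in 37 of 27025 promoters in all (0.137%). The element was first described on chaperone promoters such as those of Hspa5, Hsp90b1 and Calr, so this share is not independent of what the genes are. A match is a description of the letters, not a measured binding site. The 11 ERSE matches of the 10 genes are shown as read from CCAAT to CCACG with both boxes in capitals, to let the spacers be compared.
Hspa5: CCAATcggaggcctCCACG
Hsp90b1: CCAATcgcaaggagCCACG
Hsp90b1: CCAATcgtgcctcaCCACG
Pdia6: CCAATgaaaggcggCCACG
Calr: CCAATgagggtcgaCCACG
Canx: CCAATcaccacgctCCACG
Dnajc3: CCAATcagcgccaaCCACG
Creld2: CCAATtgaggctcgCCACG
Syvn1: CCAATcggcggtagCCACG
Derl3: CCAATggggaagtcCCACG
Ero1lb: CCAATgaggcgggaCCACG

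The spacers differed between the genes while both boxes were held by the search. The matches began between 44 bases (Syvn1) and 212 bases (the first match of Hsp90b1) before the start. A related element, ERSE-II, was searched as ATTGGNCCACG on both strands and was in 2 of 28 promoters, against 0.0962% of promoters of tested genes. They were those of Herpud1, 52 bases before the start, and Dnajb11, just after it.
Herpud1: ATTGGgCCACG
Dnajb11: ATTGGcCCACG

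The core TGACGTG of the unfolded protein response element (UPRE), bound by XBP1 or ATF6, was in the promoters of Hspa5 and Txndc5, and in 3.36% of promoters of tested genes. The CCAAT box alone was in 22 of the 28 promoters (78.6%) and in 42.8% of those of tested genes. The 250 bases before the start are printed for Hspa5, the main chaperone of the ER, and for the 6 genes with an ERSE or ERSE-II in this window that fell with SR9009 in control cells, with matches in capitals as they lie on the strand of the gene (an ERSE on the other strand reads CGTGG, then ATTGG). The windows are chr2:34771840-34772089 (+ strand) for Hspa5, chr10:86705445-86705694 (- strand) for Hsp90b1, chr12:17266339-17266588 (+ strand) for Pdia6 and chr8:84846932-84847181 (- strand) for Calr. Those of the others are chr15:88819396-88819645 (+ strand) for Creld2, chr10:75893148-75893397 (+ strand) for Derl3 and chr8:94386179-94386428 (+ strand) for Herpud1, all in GRCm38.p6.
Hspa5: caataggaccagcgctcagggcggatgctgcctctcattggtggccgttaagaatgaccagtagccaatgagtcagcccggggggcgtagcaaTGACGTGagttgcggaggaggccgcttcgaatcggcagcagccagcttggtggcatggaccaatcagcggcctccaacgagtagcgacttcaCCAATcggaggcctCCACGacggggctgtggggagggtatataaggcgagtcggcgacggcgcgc
Hsp90b1: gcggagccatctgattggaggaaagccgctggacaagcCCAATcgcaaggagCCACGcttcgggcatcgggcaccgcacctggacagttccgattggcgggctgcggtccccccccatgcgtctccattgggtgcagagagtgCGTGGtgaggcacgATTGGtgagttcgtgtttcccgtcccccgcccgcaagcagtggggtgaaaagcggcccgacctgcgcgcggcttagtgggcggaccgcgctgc
Pdia6: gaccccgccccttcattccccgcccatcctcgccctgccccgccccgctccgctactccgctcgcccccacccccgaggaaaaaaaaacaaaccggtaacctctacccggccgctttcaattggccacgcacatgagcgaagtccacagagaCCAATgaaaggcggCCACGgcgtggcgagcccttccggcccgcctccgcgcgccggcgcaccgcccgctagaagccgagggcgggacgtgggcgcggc
Calr: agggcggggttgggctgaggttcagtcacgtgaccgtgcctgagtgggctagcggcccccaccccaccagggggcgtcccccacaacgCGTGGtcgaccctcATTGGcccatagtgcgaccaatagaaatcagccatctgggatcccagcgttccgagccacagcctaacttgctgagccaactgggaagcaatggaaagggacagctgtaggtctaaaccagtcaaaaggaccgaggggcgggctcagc
Creld2: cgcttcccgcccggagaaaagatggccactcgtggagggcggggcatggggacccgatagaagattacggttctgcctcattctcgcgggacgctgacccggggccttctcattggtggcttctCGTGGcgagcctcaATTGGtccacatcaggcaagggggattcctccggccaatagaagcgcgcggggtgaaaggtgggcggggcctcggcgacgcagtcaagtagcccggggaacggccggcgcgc
Derl3: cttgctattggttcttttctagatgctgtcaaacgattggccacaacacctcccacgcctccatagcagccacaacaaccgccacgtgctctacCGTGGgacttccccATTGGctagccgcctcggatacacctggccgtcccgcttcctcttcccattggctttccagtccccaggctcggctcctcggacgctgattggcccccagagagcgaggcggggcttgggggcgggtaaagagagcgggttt
Herpud1: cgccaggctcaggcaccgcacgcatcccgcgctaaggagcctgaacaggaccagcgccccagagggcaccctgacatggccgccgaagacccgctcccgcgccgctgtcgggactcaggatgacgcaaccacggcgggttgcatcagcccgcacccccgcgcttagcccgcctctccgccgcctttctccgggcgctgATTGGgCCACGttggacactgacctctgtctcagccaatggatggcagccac

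Hsp90b1 holds an ERSE on each strand, and Hspa5 holds both an ERSE and the UPRE core. The 10 genes with an ERSE did not all respond alike. In KO-labelled against control cells under SR9009, 8 of the 10 rose (median log2 change 0.48) and 9 of the 18 without one (0.32). Of all tested genes, 12.9% rose there. In the same genotype comparison in DMSO, 7 of the 10 rose (0.49) and 9 of the 18 (0.32), against 11.7% of all tested genes. With SR9009 in KO-labelled cells, 6 of the 10 fell (median -0.32) and 7 of the 18 (-0.17), against 4.56%. In control cells, 5 of the 10 fell with SR9009 (-0.35) and 7 of the 18 (-0.24), against 4.55%. The difference between promoters with and without the element was not tested. Dnajc3 has an ERSE and passed in no comparison, while Sdf2l1, one of the most changed genes, has none in this window. Outside the 34 genes, 5 tested genes hold the element, Acacb, Acnat2, Alg12, Hnrnpa3 and Pan2. Of these Alg12, a mannosyltransferase that builds the glycan precursor in the ER, rose in KO-labelled cells (log2 change 0.57, adjusted p = 0.00135 under SR9009, and 0.48, adjusted p = 0.00448 in DMSO). The other 4 passed in no comparison.

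**Figure D3:**
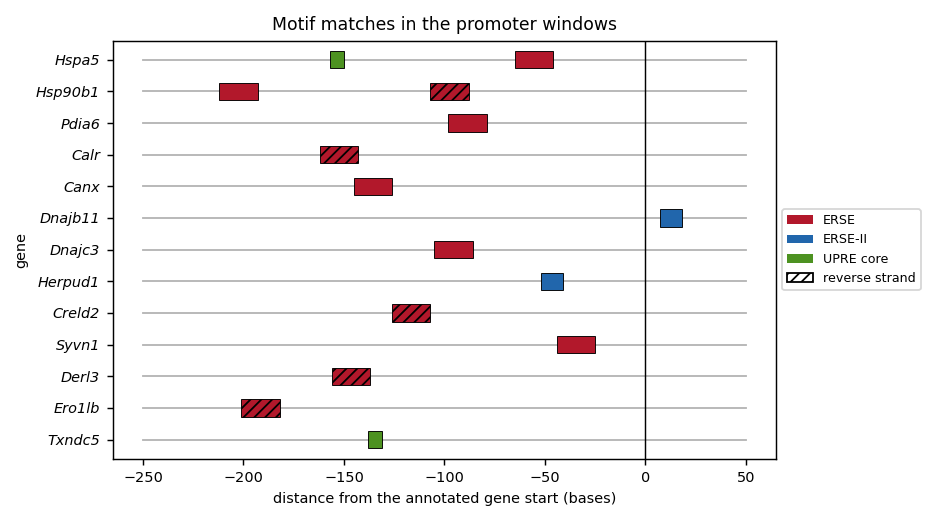
Position of ERSE, ERSE-II and UPRE core matches (bases from the annotated start, horizontal axis) in the promoters of the genes that hold one. Matches begin between 44 and 212 bases before the start for ERSE, and the ERSE-II of Dnajb11 lies just after it.

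Among the chaperones, Hsp90b1 and Hyou1 passed in every comparison of genotype or treatment, and Hspa5 in 1. Hspa5 (BiP; ENSMUSG00000026864, chr2:34627490-34632051 in mm9) is the ER member of the HSP70 family, which binds unfolded chains and holds the sensors inactive. It is given in full as the main chaperone of the ER, a choice made after its values were seen. Hspa5 stood at 602, 637 and 665 FPKM in the KO-labelled SR9009 libraries and 708, 720.3 and 794 FPKM in the KO-labelled DMSO libraries. In control cells Hspa5 was at 365, 511 and 543 FPKM with SR9009 and 619, 636 and 606 FPKM with DMSO. All KO-labelled values lay above the control values of the same treatment, and all SR9009 values below the DMSO values of the same genotype. Control SR9009 library 1, the shallowest, was well below the other libraries of its group. Hspa5 rose in KO-labelled against control cells under SR9009 (log2 change 0.44, SE 0.12, adjusted p = 0.0184). This call ended without KO-labelled SR9009 library 2 or 3 (adjusted p = 0.0528 to 0.0693), and without control SR9009 library 1 the change was 0.27 (adjusted p = 0.0157). The other changes did not pass: 0.25 (adjusted p = 0.157) between genotypes in DMSO, -0.22 (adjusted p = 0.292) for SR9009 in KO-labelled cells and -0.41 (adjusted p = 0.0514) for SR9009 in control cells. Leaving out control SR9009 library 1 brought the genotype change in DMSO past the threshold (adjusted p = 0.01) and that of SR9009 in KO-labelled cells too (adjusted p = 0.0338). The change with SR9009 in control cells passed without control SR9009 library 3 (adjusted p = 0.0187).

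Hsp90b1 (GRP94; ENSMUSG00000020048, chr10:86152954-86168254) is the HSP90 of the ER and completes the folding of a narrower set of clients. Hsp90b1 stood at 207, 219 and 226 FPKM in the KO-labelled SR9009 libraries and 289, 279.8 and 313 FPKM in the KO-labelled DMSO libraries. In control cells Hsp90b1 was at 149, 159 and 167 FPKM with SR9009 and 233, 226 and 216 FPKM with DMSO. The groups were separate in each comparison, with KO-labelled DMSO highest and control SR9009 lowest. Hsp90b1 rose in KO-labelled cells under SR9009 (log2 change 0.46, SE 0.06, adjusted p = 0.000217) and in DMSO (log2 change 0.38, SE 0.06, adjusted p = 0.000855). It fell with SR9009 in KO-labelled cells (log2 change -0.43, SE 0.06, adjusted p = 0.000977) and in control cells (log2 change -0.50, SE 0.06, adjusted p = 0.000507). Its model overlaps that of AC152453.1 by 133 bp on the same strand, which has a mean of 220.1 FPKM, and reads of the overlap could be given to either. Hyou1 (GRP170; ENSMUSG00000032115, chr9:44187573-44200452) exchanges the nucleotide of BiP and holds unfolded chains itself. Hyou1 stood at 44.6, 47.9 and 51.9 FPKM in the KO-labelled SR9009 libraries and 64.8, 63.4 and 69.1 FPKM in the KO-labelled DMSO libraries. In control cells Hyou1 was at 32.2, 30.1 and 25.6 FPKM with SR9009 and 43.0, 42.4 and 44.7 FPKM with DMSO. Here too KO-labelled DMSO libraries were highest and control SR9009 libraries lowest, with no overlap. Hyou1 rose in KO-labelled cells under SR9009 (log2 change 0.70, SE 0.08, adjusted p = 6.74e-05) and in DMSO (log2 change 0.59, SE 0.08, adjusted p = 0.000292). With SR9009 it fell in KO-labelled cells (log2 change -0.44, SE 0.08, adjusted p = 0.00504) and in control cells (log2 change -0.56, SE 0.08, adjusted p = 0.00161).

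Of 6 co-chaperones and BiP-associated factors, Dnajb11 and Sdf2l1 passed in every comparison of genotype or treatment, and Dnajb9, Dnajc3 and Sil1 in none. Sdf2l1 (ENSMUSG00000022769, chr16:17130231-17132476) works with the J protein ERdj3 to keep chains soluble. Sdf2l1 stood at 31.3, 28.4 and 30.7 FPKM in the KO-labelled SR9009 libraries and 45.8, 45.3 and 48.4 FPKM in the KO-labelled DMSO libraries. In control cells Sdf2l1 was at 13.4, 13.2 and 16.6 FPKM with SR9009 and 24.4, 29.5 and 21.7 FPKM with DMSO. KO-labelled DMSO libraries were all above the rest, and control SR9009 libraries all below. Sdf2l1 rose in KO-labelled cells under SR9009 (log2 change 1.02, SE 0.11, adjusted p = 2.63e-05) and in DMSO (log2 change 0.87, SE 0.11, adjusted p = 0.000113), and fell with SR9009 in KO-labelled cells (log2 change -0.61, SE 0.11, adjusted p = 0.00372) and in control cells (log2 change -0.76, SE 0.11, adjusted p = 0.00107). Dnajb11 (ERdj3; ENSMUSG00000004460, chr16:22857918-22879707) is that J protein and delivers unfolded chains to BiP. Dnajb11 stood at 44.1, 42.4 and 41.3 FPKM in the KO-labelled SR9009 libraries and 54.8, 53.2 and 56.3 FPKM in the KO-labelled DMSO libraries. In control cells Dnajb11 was at 30.4, 29.5 and 31.2 FPKM with SR9009 and 40.7, 42.8 and 37.3 FPKM with DMSO. The order was the same, with narrow groups that did not overlap in any comparison. Dnajb11 rose in KO-labelled cells under SR9009 (log2 change 0.48, SE 0.06, adjusted p = 0.00012) and in DMSO (log2 change 0.44, SE 0.06, adjusted p = 0.000247), and fell with SR9009 in KO-labelled cells (log2 change -0.35, SE 0.06, adjusted p = 0.00292) and in control cells (log2 change -0.39, SE 0.06, adjusted p = 0.00187).

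Manf, a secreted factor that binds BiP, averaged 88.6 ± 11.7 FPKM in KO-labelled SR9009, 130.4 ± 25.2 in KO-labelled DMSO, 64.0 ± 12.8 in control SR9009 and 98.3 ± 11.8 in control DMSO libraries (SD, n = 3 each). It fell with SR9009 in control cells (log2 change -0.63, SE 0.17, adjusted p = 0.0412), a call that ended without KO-labelled SR9009 library 2 or 3, KO-labelled DMSO library 2, control SR9009 library 1 or 3 or control DMSO library 1, 2 or 3 (adjusted p = 0.0505 to 0.14). In KO-labelled cells its SR9009 change was -0.54 (adjusted p = 0.065) and did not pass, except without KO-labelled DMSO library 1 or control SR9009 library 1 (adjusted p = 0.0325 to 0.043). The model of Manf overlaps that of Vprbp over 45007 bp on the opposite strand, at a mean of 7.95 FPKM. Dnajb9 (ERdj4), a J protein that also restrains IRE1α, had log2 changes of 0.10 (adjusted p = 0.391) between genotypes in DMSO and -0.05 (adjusted p = 0.78) with SR9009 in control cells. Dnajc3 (p58IPK), a J protein that inhibits PERK, had 0.13 (adjusted p = 0.222) and -0.06 (adjusted p = 0.654) in the same comparisons, and Sil1, a nucleotide exchange factor of BiP, 0.14 (adjusted p = 0.23) and 0.03 (adjusted p = 0.871).

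The lectin chaperones of the calnexin cycle hold glycosylated chains until they fold. Calr, soluble calreticulin (ENSMUSG00000003814, chr8:87365749-87370833), passed in every comparison of genotype or treatment. Calr stood at 269, 269 and 282 FPKM in the KO-labelled SR9009 libraries and 308, 321 and 340.4 FPKM in the KO-labelled DMSO libraries. In control cells Calr was at 187, 190.5 and 202 FPKM with SR9009 and 238, 235 and 222 FPKM with DMSO. KO-labelled libraries were above control libraries whatever the treatment, and within each genotype SR9009 libraries were below DMSO libraries. Calr rose in KO-labelled cells under SR9009 (log2 change 0.50, SE 0.05, adjusted p = 3.18e-05) and in DMSO (log2 change 0.48, SE 0.05, adjusted p = 5.32e-05). It fell with SR9009 in KO-labelled cells (log2 change -0.24, SE 0.05, adjusted p = 0.0147) and in control cells (log2 change -0.26, SE 0.05, adjusted p = 0.0108). The call in KO-labelled cells ended without KO-labelled SR9009 library 1 or 2 or KO-labelled DMSO library 3 (adjusted p = 0.0621 to 0.0679). Canx, its membrane-bound relative calnexin (ENSMUSG00000020368, chr11:50107969-50139175), was flatter. Canx stood at 80.3, 85.2 and 87.7 FPKM in the KO-labelled SR9009 libraries and 81.7, 83.4 and 89.3 FPKM in the KO-labelled DMSO libraries. In control cells Canx was at 67.1, 70.5 and 64.8 FPKM with SR9009 and 79.2, 74.0 and 77.8 FPKM with DMSO. Under SR9009 all KO-labelled libraries were above all control libraries, while in KO-labelled cells the SR9009 and DMSO libraries overlapped. Canx rose in KO-labelled cells under SR9009 (log2 change 0.32, SE 0.06, adjusted p = 0.0017), and its other changes did not pass, at 0.14 (adjusted p = 0.12) between genotypes in DMSO, -0.01 (adjusted p = 0.967) for SR9009 in KO-labelled cells and -0.19 (adjusted p = 0.0646) in control cells. Its SR9009 effect in KO-labelled minus control cells was 0.18 (95% interval 0.01 to 0.36, adjusted p = 0.711).

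Of the 8 genes of disulfide chemistry, 6 rose and 1 fell between genotypes under SR9009 and likewise in DMSO. Of all tested genes, 12.9% rose and 7.43% fell under SR9009, and 11.7% and 8.32% in DMSO. With SR9009, 4 of the 8 fell in KO-labelled and 5 in control cells, against 4.56% and 4.55% of all tested genes. Pdia4 (ERp72; ENSMUSG00000025823, chr6:47746141-47763511) and Pdia6 (P5; ENSMUSG00000020571, chr12:17273351-17291576) are protein disulfide isomerases, which shuffle bonds until the right pairs form. Pdia4 stood at 73.7, 76.4 and 79.2 FPKM in the KO-labelled SR9009 libraries and 97.3, 91.2 and 113 FPKM in the KO-labelled DMSO libraries. In control cells Pdia4 was at 38.8, 41.0 and 40.0 FPKM with SR9009 and 62.0, 60.2 and 57.7 FPKM with DMSO. Each group stood apart from the others, in the order KO-labelled DMSO, KO-labelled SR9009, control DMSO and control SR9009. Pdia4 rose in KO-labelled cells under SR9009 (log2 change 0.92, SE 0.07, adjusted p = 1.83e-06) and in DMSO (log2 change 0.73, SE 0.07, adjusted p = 1.55e-05), and fell with SR9009 in KO-labelled cells (log2 change -0.38, SE 0.07, adjusted p = 0.00513) and in control cells (log2 change -0.57, SE 0.07, adjusted p = 0.000548). Pdia6 stood at 134, 137 and 136 FPKM in the KO-labelled SR9009 libraries and 177, 173 and 184 FPKM in the KO-labelled DMSO libraries. In control cells Pdia6 was at 76.8, 83.7 and 90.1 FPKM with SR9009 and 119.7, 115 and 111 FPKM with DMSO. Pdia6 had the same order, and its KO-labelled SR9009 libraries lay within a few FPKM of each other. Pdia6 rose in KO-labelled cells under SR9009 (log2 change 0.69, SE 0.06, adjusted p = 4.56e-06) and in DMSO (log2 change 0.62, SE 0.06, adjusted p = 1.31e-05). With SR9009 it fell in KO-labelled cells (log2 change -0.39, SE 0.06, adjusted p = 0.0015) and in control cells (log2 change -0.46, SE 0.06, adjusted p = 0.000665).

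Further members of this class included an abundant isomerase and a partner of the lectins. P4hb, the founding isomerase PDI, averaged 420.1 ± 13.8 FPKM in KO-labelled SR9009, 471 ± 16.6 in KO-labelled DMSO, 333 ± 6.62 in control SR9009 and 379 ± 8.66 in control DMSO libraries (SD, n = 3 each). It rose in KO-labelled cells under SR9009 (log2 change 0.33, SE 0.05, adjusted p = 0.00028) and in DMSO (log2 change 0.31, SE 0.05, adjusted p = 0.000515). Its falls with SR9009, -0.17 (adjusted p = 0.0456) in KO-labelled cells and -0.19 (adjusted p = 0.0306) in control cells, were less firm. The call in KO-labelled cells ended without KO-labelled SR9009 library 1, 2 or 3, KO-labelled DMSO library 2 or 3, control SR9009 library 1 or 2 or control DMSO library 1, 2 or 3 (adjusted p = 0.0515 to 0.165), and that in control cells without KO-labelled SR9009 library 2, control SR9009 library 1 or 2 or control DMSO library 1, 2 or 3 (adjusted p = 0.0503 to 0.106). Pdia3 (ERp57), which works with the lectins, rose in KO-labelled cells under SR9009 (log2 change 0.52, SE 0.09, adjusted p = 0.00186) and in DMSO (log2 change 0.37, SE 0.09, adjusted p = 0.0162). The DMSO call ended without KO-labelled DMSO library 3 or control DMSO library 1 (adjusted p = 0.0659 to 0.0673). Pdia3 fell with SR9009 in control cells (log2 change -0.34, SE 0.09, adjusted p = 0.0467), which ended without KO-labelled SR9009 library 1, 2 or 3, KO-labelled DMSO library 1 or 2, control SR9009 library 1 or 2 or control DMSO library 1, 2 or 3 (adjusted p = 0.0525 to 0.154). Creld2, an ER protein with isomerase activity, rose in KO-labelled cells under SR9009 (log2 change 0.60, SE 0.10, adjusted p = 0.00124) and in DMSO (log2 change 0.53, SE 0.10, adjusted p = 0.00301). It fell with SR9009 in KO-labelled cells (log2 change -0.39, SE 0.10, adjusted p = 0.0299), a call that ended without KO-labelled SR9009 library 1, 2 or 3 or KO-labelled DMSO library 1 or 3 (adjusted p = 0.0524 to 0.116). In control cells it fell too (log2 change -0.46, SE 0.10, adjusted p = 0.0163), which ended without control SR9009 library 1 or 2 or control DMSO library 1 or 2 (adjusted p = 0.0564 to 0.0722). Txndc5 (ERp46) is another isomerase. Txndc5 stood at 74.9, 69.9 and 73.7 FPKM in the KO-labelled SR9009 libraries and 75.0, 77.5 and 77.8 FPKM in the KO-labelled DMSO libraries. In control cells Txndc5 was at 83.7, 79.7 and 73.6 FPKM with SR9009 and 85.2, 75.8 and 45.0 FPKM with DMSO. Control DMSO library 3 was far below the other two of its group, and the genotypes overlapped in both treatments. Txndc5 passed in no comparison, and its SR9009 effect in KO-labelled minus control cells was -0.32 (95% interval -0.86 to 0.21, adjusted p = 0.847).

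The paralogous oxidases that recharge the isomerases moved in opposite directions between genotypes. Ero1lb (ERO1β; ENSMUSG00000057069, chr13:12658150-12701793) is the form known from secretory cells such as those of the pancreas. Ero1lb stood at 11.5, 13.4 and 13.1 FPKM in the KO-labelled SR9009 libraries and 14.1, 14.3 and 15.3 FPKM in the KO-labelled DMSO libraries. In control cells Ero1lb was at 6.001, 6.90 and 6.08 FPKM with SR9009 and 8.31, 7.497 and 6.78 FPKM with DMSO. Every KO-labelled library was above every control library. Ero1lb rose in KO-labelled cells under SR9009 (log2 change 0.90, SE 0.09, adjusted p = 1.85e-05) and in DMSO (log2 change 0.87, SE 0.09, adjusted p = 2.59e-05), and its SR9009 changes did not pass, at -0.19 (adjusted p = 0.238) in KO-labelled and -0.22 (adjusted p = 0.183) in control cells. Ero1l (ERO1α; ENSMUSG00000021831, chr14:45902879-45938237), the widely expressed form, is described because it was the only member to fall between genotypes, a choice made after its values were seen. Ero1l stood at 10.3, 11.3 and 11.3 FPKM in the KO-labelled SR9009 libraries and 9.97, 8.30 and 11.4 FPKM in the KO-labelled DMSO libraries. In control cells Ero1l was at 18.3, 16.0 and 16.0 FPKM with SR9009 and 18.1, 14.1 and 14.5 FPKM with DMSO. Every KO-labelled library was below every control library. Ero1l fell in KO-labelled cells under SR9009 (log2 change -0.57, SE 0.12, adjusted p = 0.00396) and in DMSO (log2 change -0.61, SE 0.12, adjusted p = 0.00288), while its SR9009 changes were 0.14 (adjusted p = 0.517) in KO-labelled and 0.10 (adjusted p = 0.669) in control cells. In FPKM, Ero1lb averaged 14.6 ± 0.68 and Ero1l 9.89 ± 1.55 in KO-labelled DMSO cells, where every Ero1lb value was above every Ero1l value. In control DMSO cells Ero1lb averaged 7.53 ± 0.76 and Ero1l 15.5 ± 2.18 FPKM (SD, n = 3 each).

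**Figure D4:**
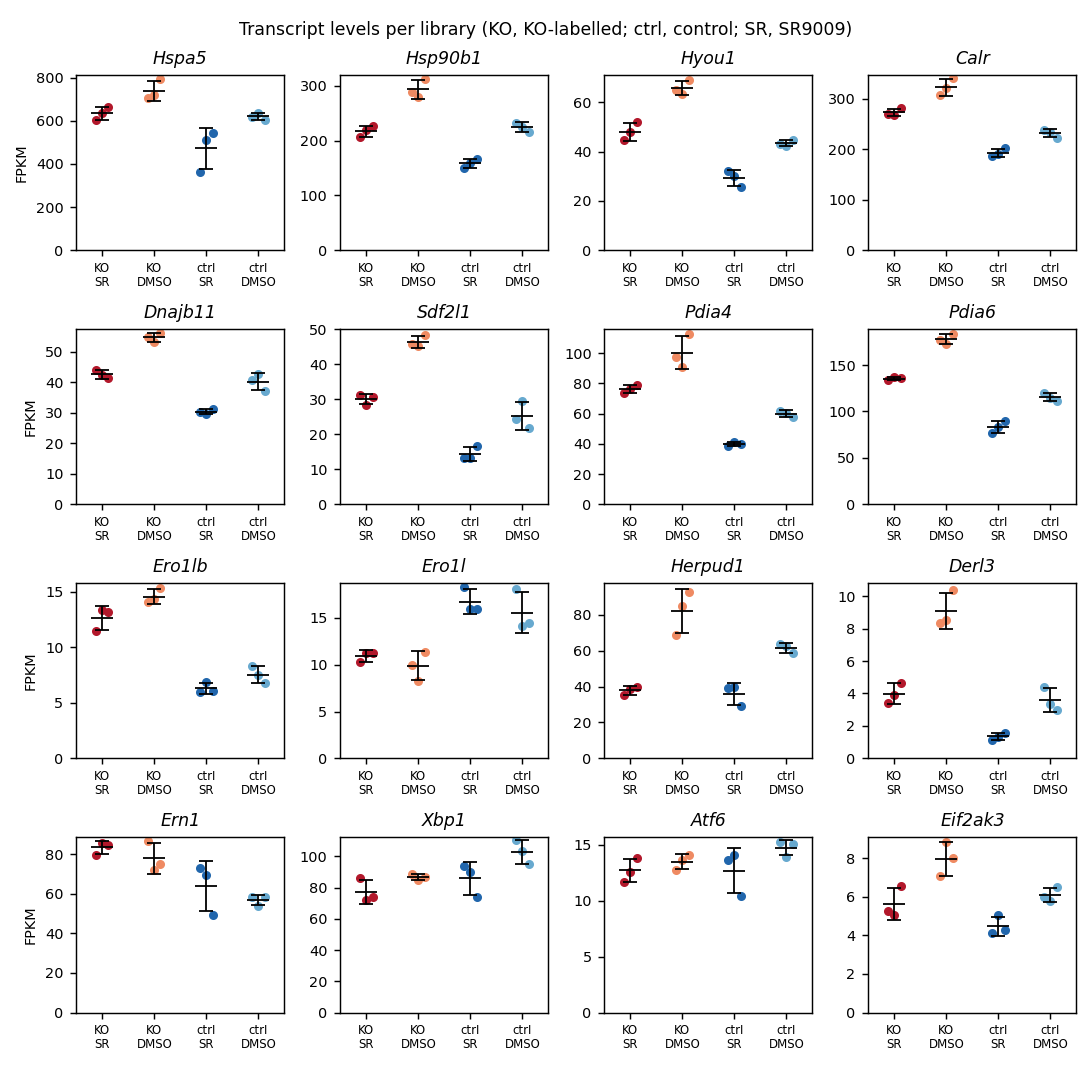
FPKM in each of the 12 libraries for 16 members, 1 panel a gene, with points for libraries and bars for the group mean and SD (n = 3). Ero1lb lies higher in all KO-labelled than in all control libraries, and Ero1l lower.

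Of the 7 genes of ER-associated degradation, Derl3 changed most of all 34 genes on the log2 scale between genotypes in DMSO. Derl3 (Derlin-3; ENSMUSG00000009092, chr10:75356143-75358686) is a membrane protein of the channel through which misfolded chains leave the ER. Derl3 stood at 3.43, 3.89 and 4.66 FPKM in the KO-labelled SR9009 libraries and 8.34, 8.52 and 10.4 FPKM in the KO-labelled DMSO libraries. In control cells Derl3 was at 1.15, 1.31 and 1.59 FPKM with SR9009 and 4.41, 3.35 and 2.97 FPKM with DMSO. Control SR9009 libraries, at under 2 FPKM, were below all others, and KO-labelled DMSO libraries above. Derl3 rose in KO-labelled cells under SR9009 (log2 change 1.08, SE 0.14, adjusted p = 0.000141) and in DMSO (log2 change 1.14, SE 0.14, adjusted p = 1e-04), and fell with SR9009 in KO-labelled cells (log2 change -1.01, SE 0.14, adjusted p = 0.000725) and in control cells (log2 change -0.95, SE 0.14, adjusted p = 0.00144). Its group means were 3.99 ± 0.62, 9.07 ± 1.12, 1.35 ± 0.23 and 3.58 ± 0.75 FPKM (SD, n = 3 each) in KO-labelled SR9009, KO-labelled DMSO, control SR9009 and control DMSO cells.

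Herpud1 (HERP; ENSMUSG00000031770, chr8:96910338-96919277) gathers the ubiquitin ligase complex of the pathway and is itself short-lived. Herpud1 stood at 35.0, 38.7 and 39.8 FPKM in the KO-labelled SR9009 libraries and 68.5, 84.9 and 92.8 FPKM in the KO-labelled DMSO libraries. In control cells Herpud1 was at 39.0, 39.8 and 29.1 FPKM with SR9009 and 63.7, 62.7 and 58.6 FPKM with DMSO. Within each genotype all SR9009 libraries were below all DMSO libraries, while under SR9009 the genotypes overlapped. Herpud1 fell with SR9009 in KO-labelled cells (log2 change -1.09, SE 0.12, adjusted p = 0.000214) and in control cells (log2 change -0.77, SE 0.12, adjusted p = 0.00266). Its fall in KO-labelled cells was larger than that of Derl3 with the pseudocount of 1, and smaller with one of 0.1 (-1.11 for Herpud1 and -1.17 for Derl3). The difference of these effects was -0.31 (95% interval -0.70 to 0.07, adjusted p = 0.772). It rose in KO-labelled cells in DMSO (log2 change 0.40, SE 0.12, adjusted p = 0.0419), which ended without KO-labelled SR9009 library 2 or 3, KO-labelled DMSO library 2 or 3 or control DMSO library 1, 2 or 3 (adjusted p = 0.0531 to 0.154), and under SR9009 its genotype change was 0.08 (adjusted p = 0.692). Derl1, another derlin, fell with SR9009 in KO-labelled cells (log2 change -0.23, SE 0.05, adjusted p = 0.00703) and in control cells (log2 change -0.30, SE 0.05, adjusted p = 0.00192). It rose in KO-labelled cells under SR9009 (log2 change 0.33, SE 0.05, adjusted p = 0.000248) and in DMSO (log2 change 0.27, SE 0.05, adjusted p = 0.00139). Edem1, a lectin that picks misfolded glycoproteins for removal, fell with SR9009 by -0.41 (adjusted p = 0.007) in KO-labelled and -0.40 (adjusted p = 0.0101) in control cells, and its genotype changes did not pass (0.16, adjusted p = 0.181 under SR9009, and 0.18, adjusted p = 0.152 in DMSO).

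The ligase Syvn1 (HRD1), its partner Sel1l and the derlin Derl2 gave calls that ended when single libraries were left out. Sel1l (ENSMUSG00000020964, chr12:93044483-93087597) stabilises the ligase. Sel1l stood at 12.4, 17.5 and 12.7 FPKM in the KO-labelled SR9009 libraries and 20.3, 21.5 and 22.6 FPKM in the KO-labelled DMSO libraries. In control cells Sel1l was at 15.7, 9.92 and 8.08 FPKM with SR9009 and 11.4, 11.1 and 16.4 FPKM with DMSO. KO-labelled DMSO libraries were above control DMSO libraries, and under SR9009 the genotypes overlapped. Sel1l rose in KO-labelled cells in DMSO (log2 change 0.70, SE 0.21, adjusted p = 0.0355), which ended without KO-labelled DMSO library 1, 2 or 3 or control DMSO library 1 or 2 (adjusted p = 0.0715 to 0.124). Its other changes did not pass, at 0.35 (adjusted p = 0.28) between genotypes under SR9009, -0.58 (adjusted p = 0.118) for SR9009 in KO-labelled and -0.22 (adjusted p = 0.606) in control cells. Without control SR9009 library 1, the genotype change of Sel1l under SR9009 and its SR9009 change in KO-labelled cells passed. Derl2 (ENSMUSG00000018442, chr11:70820666-70833343) had the smallest unadjusted p of the 34 genes for a difference between the SR9009 effects. Derl2 stood at 48.6, 49.6 and 52.6 FPKM in the KO-labelled SR9009 libraries and 35.9, 56.2 and 59.8 FPKM in the KO-labelled DMSO libraries. In control cells Derl2 was at 40.4, 33.9 and 25.7 FPKM with SR9009 and 53.1, 50.4 and 49.1 FPKM with DMSO. KO-labelled DMSO library 1, 1 of the 2 shallowest, was far below the other two of its group, and within control cells all SR9009 libraries were below all DMSO libraries. Derl2 rose in KO-labelled cells under SR9009 (log2 change 0.60, SE 0.18, adjusted p = 0.0357), which ended without KO-labelled SR9009 library 1, 2 or 3 or control SR9009 library 2 or 3 (adjusted p = 0.0626 to 0.119). The SR9009 effect in KO-labelled minus control cells was 0.64 (95% interval 0.08 to 1.196, adjusted p = 0.663), with changes of 0.02 (adjusted p = 0.961) in KO-labelled and -0.62 (adjusted p = 0.059) in control cells. The change of Derl2 in control cells passed without KO-labelled DMSO library 1 or control SR9009 library 1 (adjusted p = 0.0129 to 0.038). Its model overlaps that of Mis12 by 231 bp on the opposite strand. Syvn1 rose in KO-labelled cells in DMSO (log2 change 0.51, SE 0.15, adjusted p = 0.0311), where control DMSO library 1 was at 24.5 FPKM, against 36.8 and 41.2 FPKM in the other two. Without that library the change was 0.29 (adjusted p = 0.0574), and the call also ended without KO-labelled DMSO library 1, 2 or 3 (adjusted p = 0.0663 to 0.0905). Syvn1 fell with SR9009 in KO-labelled cells (log2 change -0.51, SE 0.15, adjusted p = 0.0482), which ended without KO-labelled SR9009 library 1, 2 or 3, KO-labelled DMSO library 1, 2 or 3, control SR9009 library 1, 2 or 3 or control DMSO library 2 (adjusted p = 0.0515 to 0.156). Without control DMSO library 1, Syvn1 also fell with SR9009 in control cells (-0.50, adjusted p = 0.0116) and rose in KO-labelled cells under SR9009 (0.27, adjusted p = 0.0405), where with all libraries these changes were -0.28 (adjusted p = 0.305) and 0.27 (adjusted p = 0.227).

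Of the 4 regulators, Ern1 passed in both genotype comparisons, Eif2ak3 in 1 SR9009 comparison, and Xbp1 and Atf6 in none. Xbp1 (ENSMUSG00000020484, chr11:5420662-5425896) encodes the factor made from the spliced messenger RNA, and gene values do not separate spliced from unspliced forms. Xbp1 stood at 86.3, 71.8 and 74.1 FPKM in the KO-labelled SR9009 libraries and 88.7, 84.9 and 86.9 FPKM in the KO-labelled DMSO libraries. In control cells Xbp1 was at 93.6, 89.7 and 74.1 FPKM with SR9009 and 110.1, 103 and 94.962 FPKM with DMSO. Control DMSO libraries were highest, above all control SR9009 and all KO-labelled DMSO libraries. None of its changes passed, at -0.24 (adjusted p = 0.0971) between genotypes in DMSO, -0.15 (adjusted p = 0.307) under SR9009, -0.17 (adjusted p = 0.312) for SR9009 in KO-labelled and -0.26 (adjusted p = 0.116) in control cells. In 1 setting that left out a library, control SR9009 library 3, the DMSO genotype change passed (adjusted p = 0.0344). Atf6 (ENSMUSG00000026663, chr1:172634588-172797902) encodes the membrane-held factor that is cut in the Golgi. Atf6 stood at 11.7, 12.6 and 13.8 FPKM in the KO-labelled SR9009 libraries and 12.8, 13.7 and 14.0 FPKM in the KO-labelled DMSO libraries. In control cells Atf6 was at 13.6, 14.0 and 10.4 FPKM with SR9009 and 15.2, 13.9 and 15.1 FPKM with DMSO. The groups overlapped in every comparison, and none of the changes passed, at -0.12 (adjusted p = 0.462) between genotypes in DMSO and -0.21 (adjusted p = 0.265) for SR9009 in control cells.

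Ern1 encodes IRE1α (ENSMUSG00000020715, chr11:106255964-106349166), the sensor that splices Xbp1. Ern1 stood at 79.7, 86.0 and 84.8 FPKM in the KO-labelled SR9009 libraries and 86.9, 72.0 and 75.1 FPKM in the KO-labelled DMSO libraries. In control cells Ern1 was at 73.1, 69.4 and 49.4 FPKM with SR9009 and 58.6, 54.1 and 58.4 FPKM with DMSO. KO-labelled libraries were above control libraries of the same treatment, and control SR9009 library 3 was far below the others of its group. Ern1 rose in KO-labelled cells under SR9009 (log2 change 0.40, SE 0.12, adjusted p = 0.0374) and in DMSO (log2 change 0.44, SE 0.12, adjusted p = 0.0239). The call under SR9009 ended without KO-labelled SR9009 library 1, 2 or 3, control SR9009 library 3 or control DMSO library 1 or 3 (adjusted p = 0.0506 to 0.105), and without control SR9009 library 3 the change was 0.23. The DMSO call ended without KO-labelled DMSO library 1 or control DMSO library 1, 2 or 3 (adjusted p = 0.052 to 0.0968). The log2 change of Ern1 with SR9009 was 0.10 (adjusted p = 0.682) in KO-labelled and 0.14 (adjusted p = 0.554) in control cells. Without control SR9009 library 3 its change in control cells passed (0.32, adjusted p = 0.0295). Eif2ak3 encodes PERK (ENSMUSG00000031668, chr6:70794509-70855239), the kinase that slows translation. Eif2ak3 stood at 5.24, 5.06 and 6.56 FPKM in the KO-labelled SR9009 libraries and 7.07, 8.84 and 7.99 FPKM in the KO-labelled DMSO libraries. In control cells Eif2ak3 was at 4.10, 5.05 and 4.28 FPKM with SR9009 and 5.98, 5.79 and 6.49 FPKM with DMSO. KO-labelled libraries lay above control libraries of the same treatment, at low levels, and SR9009 libraries below DMSO libraries of the same genotype. Eif2ak3 fell with SR9009 in KO-labelled cells (log2 change -0.44, SE 0.11, adjusted p = 0.0261), which ended without KO-labelled SR9009 library 1 or 2 or KO-labelled DMSO library 2 or 3 (adjusted p = 0.0763 to 0.108). Its other changes did not pass, at 0.34 (adjusted p = 0.0519) between genotypes in DMSO, 0.27 (adjusted p = 0.109) under SR9009 and -0.38 (adjusted p = 0.0593) for SR9009 in control cells. The genotype change in DMSO passed without KO-labelled SR9009 library 3, KO-labelled DMSO library 1 or control SR9009 library 1, 2 or 3 (adjusted p = 0.0386 to 0.0494), and the SR9009 change in control cells without KO-labelled SR9009 library 3 or control SR9009 library 2 (adjusted p = 0.046 to 0.0467).

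**Figure D5:**
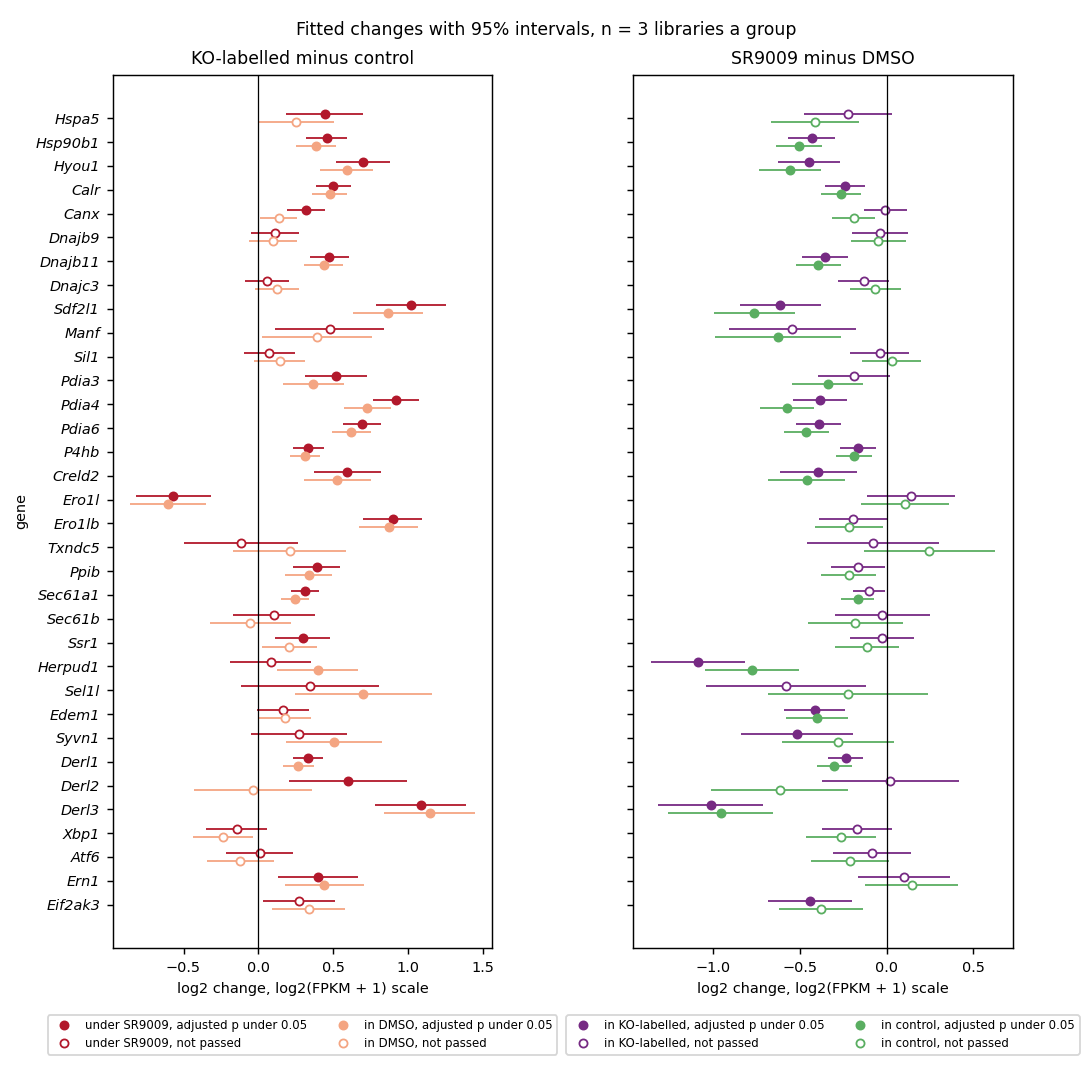
Log2 change with 95% interval for each of the 34 genes in the genotype and SR9009 comparisons, on the log2(FPKM + 1) scale, with filled points where adjusted p was under 0.05 (limma). Genotype changes lie mostly right of 0 and SR9009 changes mostly left of it, with Ero1l left of 0 between genotypes.

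The remaining members carry chains into the ER or fold proline bonds. Sec61a1, the pore of the translocon, rose in KO-labelled cells under SR9009 (log2 change 0.31, SE 0.04, adjusted p = 0.000228) and in DMSO (log2 change 0.25, SE 0.04, adjusted p = 0.00142). It fell with SR9009 in control cells (log2 change -0.17, SE 0.04, adjusted p = 0.033), which ended without KO-labelled SR9009 library 2, KO-labelled DMSO library 2 or 3, control SR9009 library 1 or 2 or control DMSO library 1, 2 or 3 (adjusted p = 0.0513 to 0.11). Ssr1, a subunit of the translocon-associated complex, rose in KO-labelled cells under SR9009 (log2 change 0.30, SE 0.08, adjusted p = 0.0266), which ended without KO-labelled SR9009 library 1, 2 or 3 or control SR9009 library 1 or 3 (adjusted p = 0.0501 to 0.0864). Sec61b, a small subunit of the pore, passed in no comparison, at 0.10 (adjusted p = 0.614) between genotypes under SR9009 and -0.18 (adjusted p = 0.454) with SR9009 in control cells. Without control SR9009 library 3 the change in control cells was -0.34 and passed (adjusted p = 0.0492). Ppib, the prolyl isomerase cyclophilin B, averaged 172 ± 4.01 FPKM in KO-labelled SR9009, 192 ± 6.24 in KO-labelled DMSO, 131 ± 14.7 in control SR9009 and 152 ± 7.75 in control DMSO libraries (SD, n = 3 each). It rose in KO-labelled cells under SR9009 (log2 change 0.39, SE 0.07, adjusted p = 0.0021) and in DMSO (log2 change 0.34, SE 0.07, adjusted p = 0.00589). Its SR9009 changes, -0.16 (adjusted p = 0.194) in KO-labelled and -0.22 (adjusted p = 0.0899) in control cells, passed without control SR9009 library 3 (-0.16, adjusted p = 0.0406, and -0.31, adjusted p = 0.00493).

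Across the roles, the calls that held whichever of the 12 libraries was left out were 14 of the 19 rises between genotypes in DMSO, 16 of the 20 under SR9009, 10 of the 15 falls with SR9009 in KO-labelled cells and 11 of the 16 in control cells. The falls of Ero1l held in both genotype comparisons. Hsp90b1, Hyou1, Pdia4, Pdia6, Dnajb11, Sdf2l1, Derl1 and Derl3 passed in both genotype and both SR9009 comparisons whichever library was left out. How many calls over all tested genes held in every omission was not counted. Over all tested genes, single omissions gave 909 to 1566 rises between genotypes in DMSO (1307 with all libraries) and 1013 to 1425 under SR9009 (1450). Falls with SR9009 ranged from 290 to 656 in KO-labelled cells (511) and 269 to 463 in control cells (510).

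Neighbouring pathways, from lists that leave out the 34 genes, were examined beside them. Of 22 genes listed for the addition or reading of N-glycans, 12 rose in KO-labelled cells under SR9009 (54.5%, against 12.9% of all tested genes). In DMSO 11 rose (50%, against 11.7%), and none fell in either. Among them Ddost and Stt3a, subunits of the oligosaccharyltransferase, rose in both (Ddost 0.42, adjusted p = 0.000328 under SR9009 and 0.32, adjusted p = 0.00274 in DMSO; Stt3a 0.39, adjusted p = 0.000825 under SR9009 and 0.33, adjusted p = 0.00342 in DMSO). Slc33a1 was counted in this list, although as the acetyl-CoA carrier of the ER it neither adds nor reads N-glycans. It rose by 0.60 under SR9009 (adjusted p = 0.00103) and by 0.61 in DMSO (adjusted p = 0.00108). With SR9009, 1 of the 22 rose and 2 fell in KO-labelled cells, and 1 rose and 2 fell in control cells (4.55% and 9.09% in each, where 5.32% and 4.56% of all tested genes rose and fell in KO-labelled and 3.69% and 4.55% in control cells). Leaving out single libraries gave 9 to 13 rises between genotypes under SR9009 and 7 to 12 in DMSO. Of 24 other folding enzymes and chaperones, 7 rose and 1 fell between genotypes under SR9009 (29.2% and 4.17%, against 12.9% and 7.43%), and 6 rose and none fell in DMSO (25%, against 11.7%). Leaving out single libraries gave 6 to 8 rises under SR9009 and 2 to 7 in DMSO. With SR9009, 2 of the 24 fell in each genotype and none rose. This is 8.33%, against 4.56% of all tested genes in KO-labelled and 4.55% in control cells. Without single libraries, 0 to 3 fell in KO-labelled and 2 to 5 in control cells. Dnajc10 (ERdj5), a reductase that aids degradation, rose in KO-labelled cells under SR9009 (0.74, adjusted p = 1.84e-05) and in DMSO (0.52, adjusted p = 0.000325). It fell with SR9009 in control cells (-0.48, adjusted p = 0.00212) and in KO-labelled cells (-0.27). The call in KO-labelled cells ended without any single KO-labelled library, control SR9009 library 2 or control DMSO library 3 (adjusted p = 0.0515 to 0.162). Fkbp11, a prolyl isomerase, rose in KO-labelled cells under SR9009 (0.67, adjusted p = 0.00287) and in DMSO (0.49). The DMSO call ended without KO-labelled DMSO library 2 or control DMSO library 1 or 3 (adjusted p = 0.0635 to 0.0737). Qsox1, a sulfhydryl oxidase, rose in DMSO (0.27, adjusted p = 0.00111) and under SR9009 (0.17). The SR9009 call ended without KO-labelled SR9009 library 1 (adjusted p = 0.0506).

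Of 20 other genes of ER-associated degradation, 3 rose and 1 fell (15% and 5%) in each genotype comparison. These shares are near those of all tested genes (12.9% and 7.43% under SR9009, 11.7% and 8.32% in DMSO). With SR9009 none passed the threshold by limma in either genotype. Unadjusted p was under 0.05 for 1 in KO-labelled and 4 in control cells. The share of all tested genes at that unadjusted threshold is not given, so these counts are not read as a result. Edem2, a relative of Edem1, rose in KO-labelled cells under SR9009 (0.67, adjusted p = 6.81e-06) and in DMSO (0.62, adjusted p = 1.4e-05), and Os9, a lectin of the ligase complex, by 0.43 under SR9009 (adjusted p = 0.00591) and 0.62 in DMSO (adjusted p = 0.000484). Of 21 other translocation genes, 7 rose between genotypes under SR9009 (33.3%, against 12.9%), and 1 rose and 1 fell in DMSO (4.76% each, against 11.7% and 8.32%). Without single libraries, 6 to 7 rose under SR9009 and 0 to 4 in DMSO. With SR9009, 3 of the 21 fell in control cells (14.3%, against 4.55%), and 1 rose in KO-labelled cells (4.76%, against 5.32%). When single libraries were left out, 0 to 3 fell in control cells, and the count of 1 rise in KO-labelled cells did not change. Tram1, a membrane protein beside the translocon, rose under SR9009 by 0.38 (adjusted p = 0.000768). It also fell with SR9009 in control cells (-0.28), which ended without control SR9009 library 1 or control DMSO library 1 or 2 (adjusted p = 0.0503 to 0.0612). Srp14, of the signal recognition particle, fell in DMSO by 0.61 (adjusted p = 0.000822) and rose with SR9009 in KO-labelled cells by 0.64 (adjusted p = 0.00154). Of 24 genes of transport between ER and Golgi, 6 rose between genotypes under SR9009 (25%, against 12.9% of all tested genes) and 4 in DMSO (16.7%, against 11.7%). With SR9009, 2 fell in KO-labelled cells (8.33%, against 4.56%) and 4 in control cells (16.7%, against 4.55%). Lman1, a cargo receptor, rose under SR9009 by 0.38 (adjusted p = 0.00354) and in DMSO by 0.23. The DMSO call ended without any single library other than control SR9009 library 2 or 3 (adjusted p = 0.0562 to 0.178). When single libraries were left out, the counts of this list ranged from 4 to 7 between genotypes under SR9009, 1 to 8 in DMSO, and 1 to 7 with SR9009 in KO-labelled and 0 to 4 in control cells.

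Signalling genes of the response outside the 34 were also examined. Of 17 tested, 3 rose with SR9009 in KO-labelled cells and 3 in control cells (17.6% each, against 5.32% and 3.69% of all tested genes), and none fell (1 to 4 and 2 to 4 rises when single libraries were left out). Ddit3 (CHOP), a factor of the PERK branch, rose with SR9009 in control cells (0.63, adjusted p = 0.00188). It was lower in KO-labelled than in control cells under SR9009 (-0.45, adjusted p = 0.00504). Both calls use the same control SR9009 libraries. Its SR9009 change in KO-labelled cells did not pass, and neither did the difference between its SR9009 effects in the 2 genotypes. Ddit3 was at 23.1, 21.951 and 22.3 FPKM in KO-labelled SR9009, 18.8, 19.3 and 21.6 in KO-labelled DMSO, 32.2, 26.5 and 34.9 in control SR9009 and 18.7, 21.3 and 19.3 in control DMSO libraries. All control SR9009 values were above all others. Trib3, a pseudokinase induced through ATF4 and CHOP, rose with SR9009 in KO-labelled cells (0.51, adjusted p = 0.000935) and in control cells (0.34, adjusted p = 0.0135). The control call for Trib3 ended without control SR9009 library 1 or control DMSO library 1 (adjusted p = 0.0511 and 0.0561). Between genotypes, 1 of the 17 fell under SR9009 (5.88%, against 7.43%), and 2 rose and 2 fell in DMSO (11.8% each, near the 11.7% and 8.32% of all tested genes). Those that fell in DMSO included Atf4, the factor whose translation PERK favours (-0.23, adjusted p = 0.00549). Atf4 also rose with SR9009 in KO-labelled cells. That call ended without KO-labelled SR9009 library 1 or 2 or KO-labelled DMSO library 2 or 3 (adjusted p = 0.0529 to 0.0864). These neighbours are described by counts and values, and no difference between them and the 34 genes was tested.

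Markers of liver cells moved with some of the same comparisons. Of 9 hepatocyte markers, 3 rose and 2 fell between genotypes under SR9009 (33.3% and 22.2%, against 12.9% and 7.43% of all tested genes) and 3 rose in DMSO (33.3%, against 11.7%). With SR9009, 4 fell in KO-labelled and 4 in control cells (44.4% each, against 4.56% and 4.55%). Their summed levels were 30533 to 31404 FPKM in KO-labelled SR9009, 32667 to 34820 in KO-labelled DMSO, 27999 to 29950 in control SR9009 and 31628 to 32115 in control DMSO libraries, higher in all KO-labelled than in all control libraries of the same treatment. Markers of sinusoidal endothelium (6) summed to 8.27 to 8.73 FPKM in KO-labelled SR9009, 8.60 to 12.8 in KO-labelled DMSO, 5.85 to 6.95 in control SR9009 and 5.43 to 6.17 in control DMSO libraries. These sums too did not overlap between genotypes. Of the 3 markers tested, 2 rose between genotypes in DMSO (66.7%, against 11.7% of all tested genes) and none passed under SR9009. Cholangiocyte markers (5) summed to 34.5 to 38.7 FPKM in KO-labelled SR9009, 29.1 to 38.8 in KO-labelled DMSO, 39.4 to 61.7 in control SR9009 and 42.1 to 44.7 in control DMSO libraries, lower in all KO-labelled than in all control libraries of the same treatment. Of the 2 tested, 1 rose and 1 fell in each genotype comparison (50% each). Of all tested genes, 12.9% rose and 7.43% fell under SR9009, and 11.7% and 8.32% in DMSO. Kupffer cell markers (7) summed to 36.7 to 37.52 FPKM in KO-labelled SR9009, 29.1 to 36.2 in KO-labelled DMSO, 37.53 to 40.8 in control SR9009 and 34.1 to 42.7 in control DMSO libraries. Of the 6 tested, 1 rose and 1 fell between genotypes under SR9009 (16.7% each, against 12.9% and 7.43%). In DMSO 1 rose and 2 fell (16.7% and 33.3%, against 11.7% and 8.32%). B cell and plasma cell markers (6), which matter because plasma cells are rich in ER chaperones, summed to at most 1.496 FPKM in any library, with Ms4a1 at 0 in all 4 groups. Stellate cell markers (7) summed to at most 2.79 FPKM. The part of these marker changes in the changes of the 34 genes was not tested.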

How the data were processed

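Polyadenylated, ribosome-depleted RNA of plated hepatocytes was sequenced, per the labels' protocols. The authors deposited 1 gene table in FPKM, made with HISAT2 and StringTie on mm9 per the submitters' processing notes. The unit is not named in the file header and was read from the values, whose totals differ between libraries (538521 to 604449). The sources used here give no tool version, annotation or strand setting, so overlapping genes cannot be separated by strand. Read totals are unknown, so no counting interval is given.

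Values were taken as log2(FPKM + 1). The limma package (3.58.1, R 4.3.3) fitted group means over the 12 libraries, with a variance trend and robust moderation, to the 11213 genes reaching 1 FPKM in 3 or more of them, and p-values were adjusted over these by the Benjamini-Hochberg method (threshold 0.05). The fit was tested on simulated data. Members and lists were chosen with earlier results of these data known. Values per library were given for 4 regulators and the 6 members with the smallest adjusted p in each comparison (and, outside this rule, Hspa5 and Ero1l), and up to 3 genes were named from each other list. Alternatives were another pseudocount, other filters, quantile normalization, TPM scaling, a replicate block, fits to the compared groups alone and leaving out each library. Promoter letters came from RefSeq tables (GRCm38.p6).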

Additional observations from a re-analysis of the deposited data

How the results depend on the processing

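The 34 genes' counts of calls kept within 1.5 times of the values reported under another pseudocount (0.1), no filter or a filter of 5 FPKM, quantile normalization and scaling to TPM. No pairing by replicate number was seen in the values. Deviations of same-numbered libraries from their group means correlated between -0.112 and 0.0911, and 5 of 12 libraries matched best a library of their own number. With 3 libraries a group, this cannot show whether same-numbered libraries share a mouse or preparation. With the replicate block, 19 members rose and 1 fell between genotypes under SR9009, and 17 rose and 2 fell in DMSO. With SR9009, 13 fell in KO-labelled and 15 in control cells. Over all 11213 tested genes, the block gave 1331 rises and 800 falls between genotypes under SR9009, and 1215 and 869 in DMSO. It gave 439 falls with SR9009 in KO-labelled and 424 in control cells. In fits to only the groups compared, 20 members rose and 2 fell between genotypes in DMSO, and 17 rose and 1 fell under SR9009. Over all tested genes, 1482 rose and 1105 fell in DMSO, and 905 and 613 under SR9009. With SR9009, 16 members fell in KO-labelled cells, where 550 of all tested genes fell. In control cells 10 fell, where 194 of 11213 tested genes fell, against 510 in the fit to all groups. In both settings, block and compared groups alone, the added fall between genotypes in DMSO was that of Xbp1 (adjusted p = 0.0438 with the block and 0.0269 in the groups alone). The cause was not tested. Leaving out each library gave 14 to 21 rises and 1 to 2 falls between genotypes in DMSO, 16 to 21 rises and 1 fall under SR9009, 10 to 16 falls with SR9009 in KO-labelled cells, and 11 to 18 falls and 0 to 1 rise in control cells. The rise, of Ern1, came without control SR9009 library 3. Without the 2 shallowest libraries, a choice made after seeing the data, 20 members rose and 1 fell in each genotype comparison. With SR9009, 14 and 12 fell in KO-labelled and control cells. Over all tested genes, 1349 rose and 739 fell between genotypes under SR9009 in this setting, and 1030 and 816 in DMSO. With SR9009, 376 and 349 of all tested genes fell in KO-labelled and control cells. Of 3366 values of single members, no called value reversed, 153 calls were lost, 50 were gained and 72 values that passed in neither fit changed sign. Scaling to TPM moved the calls over all genes to 1849 higher and 654 lower between genotypes under SR9009 (1450 and 833 as reported) and to 1597 and 701 in DMSO (1307 and 933). Depth limits precision most at low levels, such as that of Derl3 in control SR9009 libraries.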
